A study of Mus musculus with 10 samples.

Results

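GFP+ CD4+ T cells whose Foxp3 gene carries the scurfy mutation were compared with natural regulatory T cells (Treg), on 2 arrays each among the 10 arrays of the series. The members were chosen by their sample titles, which name the first kind of cell as negative for Foxp3 and the second as positive, both with the epigenetic state of Treg. Starting cells were sorted from mouse spleen by a GFP reporter in the DEREG strain, stimulated through CD3 and CD28, infected with a retrovirus that carries an NGFR marker, and sorted again for NGFR. The 5 groups of 2 arrays were scurfy mock (GFP+ cells of DEREG/Scurfy mice, labelled mock), scurfy Foxp3 (the same cells, labelled as given Foxp3), Treg (GFP+ cells of DEREG mice, empty vector), Tconv Foxp3 (GFP- conventional cells of DEREG mice, labelled as given Foxp3) and Tconv mock (GFP- cells, empty vector). The labels give no age, and they list the DEREG strain on a Balb/c background for every array, so that the scurfy origin rests on the abbreviation in the sample descriptions and on the protocol. In the DEREG strain GFP is made by a transgene under control sequences of Foxp3, so GFP+ cells of scurfy mice are cells that switched on that transgene and not cells shown to be regulatory. Scurfy mice are sick with autoimmunity, and the mutation, the diseased animal and the history of the cells before sorting cannot be told apart in this design. In such bulk samples fewer cells of a type and less RNA per cell cannot be told apart either.

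Foxp3 is a forkhead transcription factor that is needed for the development and the suppressive function of Treg. Cells that start towards the Treg fate gain demethylated regions at genes such as Foxp3, Ikzf2, Ikzf4, Il2ra, Ctla4 and Tnfrsf18, and they can do so without working Foxp3 protein. Treg restrain other T cells through surface enzymes that make adenosine, through integrins that activate latent TGF-beta, and through receptors and cytokines that limit costimulation. The comparison asked what differed between cells with the Treg starting state that lack working Foxp3 and Treg that have it.

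Median intensity per array ran from 18.8 to 36.3 over the series. Across the 11326 genes tested, which are not independent replicates, the 2 scurfy mock arrays correlated with each other at 0.920 and the 2 Treg arrays at 0.958. Scurfy mock array 2 matched scurfy Foxp3 array 1 better (0.974) than its own replicate, and 1603 genes (14.2%) differed by over 1 log2 unit between the scurfy mock arrays, against 1247 (11.0%) between the Treg arrays. Such genes numbered 1791 (15.8%) in scurfy Foxp3, but only 697 (6.15%) in Tconv mock and 492 (4.34%) in Tconv Foxp3. The fit below shares 1 spread per gene over all 5 groups, the tighter Tconv pairs included. Scurfy mock array 1 correlated at 0.925 at most with any other array, the lowest best match of the 10, and 3 of the 29 calls given below were kept without it. The Gapdh 3' to 5' probe set ratio, a sign of RNA quality, was 1.75 and 1.85 in scurfy mock cells, against 2.06 and 2.11 in Treg, with no overlap, and its part in the results was not tested. T cell markers were abundant on all 4 arrays: summed over the 9 measured markers, intensity was 34239 and 32598 in scurfy mock cells, against 29073 and 29794 in Treg. Differences below are log2(intensity + 16) of scurfy mock minus Treg with the standard error (SE) of a limma fit, and a gene was called at a Benjamini-Hochberg adjusted p under 0.05 over all genes.

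Foxp3 transcript was present in both groups. Its intensity was 1188 and 1114 in scurfy mock cells, against 2130 and 3128 in Treg, a difference of -1.16 (SE 0.30, limma adjusted p = 0.24) that was not called. The scurfy mock arrays lay below both Treg arrays. Both groups stood far above Tconv mock, at 53.9 and 35.9. The probe set measures transcript only and does not show the mutation or the protein. Flicr, a noncoding RNA transcribed beside Foxp3, had 570 and 505 in scurfy mock cells, against 1500 and 1243 in Treg (-1.32, SE 0.30, adjusted p = 0.15). The arrays labelled as given Foxp3 did not read higher on the Foxp3 probe set than their mock arrays: it read 948 and 691 in scurfy Foxp3, and 18.04 and 18.9 in Tconv Foxp3. Whether this probe set measures transcript from the vector is not known.

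Apart from Foxp3, the 5 listed genes that carry demethylated regions in Treg had differences of no more than 0.07 log2 units either way. Ikzf2, the gene of the zinc finger factor Helios, read 3061 and 2303 in scurfy mock cells, against 2261 and 3341 in Treg, and the groups overlapped (-0.05, 95% interval -0.72 to 0.62). It read 10.2 and 9.03 in Tconv mock. Ikzf4, which encodes Eos, read 3294 and 3314 in scurfy mock cells, against 2742 and 4028 in Treg (-0.01, interval -0.67 to 0.65). Il2ra, the IL-2 receptor alpha chain CD25, read 7902 and 7962 in scurfy mock cells, against 8127 and 8558 in Treg (-0.07, interval -0.62 to 0.47). The inhibitory receptor gene Ctla4 differed by 0.05 (-0.84 to 0.95), and Tnfrsf18, which encodes GITR, by 0.04 (-0.70 to 0.79). Of these 6 genes with Foxp3 included, 0 were called, and their median was -0.03 against 0.04 for all genes tested. In 2 of the 6, Foxp3 and Il2ra, both scurfy mock arrays lay below both Treg arrays, where 14.4% of all genes tested lay below and 18% above. The intervals leave room for differences of up to about 1 log2 unit in Ctla4, and the arrays measure RNA, not methylation. Tconv mock was bright too in Il2ra (7507 and 7422), Ctla4 (3336 and 2031) and Tnfrsf18 (5207 and 3106). Treg minus Tconv mock was 0.16, 0.75 and 0.22 in these genes, with no call, against 6.75 in Ikzf2 and 2.38 in Ikzf4. For Il2ra, Ctla4 and Tnfrsf18 a small difference therefore does not show that a Treg trait was kept.

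Across all genes, 29 of 11326 genes (0.256%) were called, 21 lower in scurfy mock (0.185% of all genes) and 8 higher (0.0706%). At an unadjusted p under 0.05 there were 899 genes. The lower genes included the surface enzyme gene Nt5e, the integrin gene Itgb8 and the transcription factor genes Tox and Tead1, and the higher genes included the chemokine receptor gene Cxcr6 and the protease gene Mmp10.

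**Figure D1:**
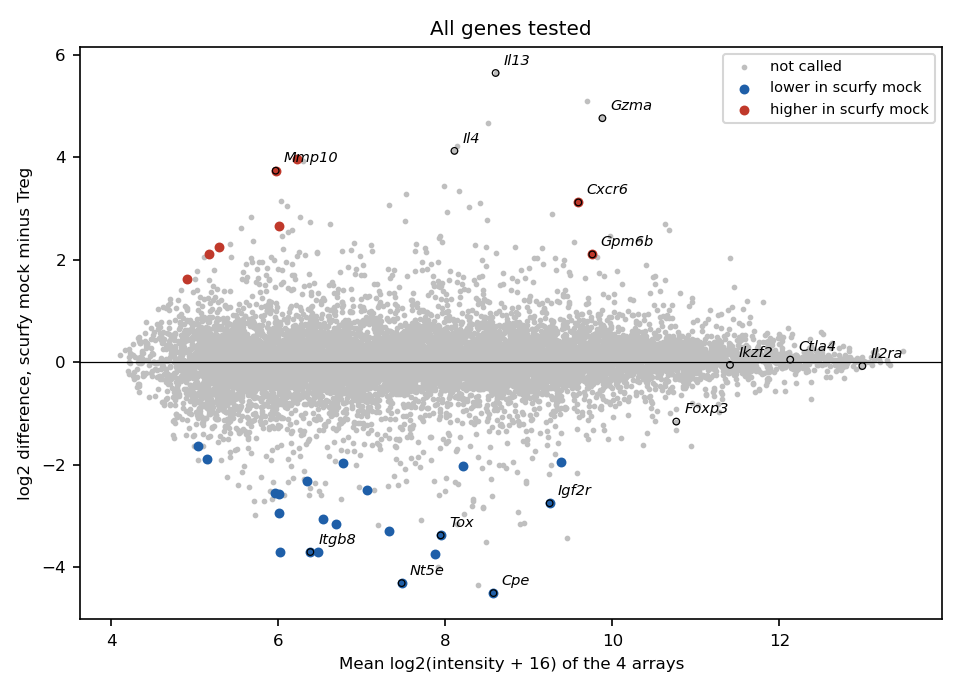
All 11326 genes tested, with the mean log2(intensity + 16) of the 4 compared arrays on the x axis and the log2 difference, scurfy mock minus Treg, on the y axis. Red points are the 8 genes called higher in scurfy mock and blue points the 21 called lower. Open circles mark genes given in the text, with Ikzf2, Ctla4 and Il2ra near 0, Foxp3 at -1.16 and Cpe at -4.50.

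Cpe, carboxypeptidase E, which trims peptide hormone precursors, had the largest difference among the called genes. It read 55.0 and 74.9 in scurfy mock cells, against 2178 and 1488 in Treg (-4.50, SE 0.31, adjusted p = 0.0013). Nt5e encodes CD73, a surface enzyme that turns AMP into adenosine. It read 21.98 and 26.4 in scurfy mock cells, against 838 and 720 in Treg (-4.30, SE 0.31, adjusted p = 0.0013). No scurfy mock array came near a Treg array for either gene. Another probe set for Nt5e gave -4.11, and the last of its 3, dim on all 4 arrays, gave 0.38.

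Tox, an HMG-box transcription factor known for its part in thymic CD4 T cell development and in exhausted T cells, read 45.6 and 79.2 in scurfy mock cells, against 838 and 722 in Treg (-3.37, SE 0.34, adjusted p = 0.0079). Itgb8, the integrin beta 8 chain that pairs with the alpha v chain to activate latent TGF-beta, read 0.118 and 17.4 in scurfy mock cells, against 233 and 349 in Treg (-3.70, SE 0.45, adjusted p = 0.021). The scurfy mock values of Itgb8 lay at or below the array medians, so on this log scale its difference understates any true ratio. Tead1, a DNA-binding partner of the Hippo pathway co-activator YAP, read 4.98 and 13.1 in scurfy mock cells, against 253 and 362 in Treg (-3.69, SE 0.41, adjusted p = 0.015). Qser1, a chromatin protein that protects developmental enhancers from DNA methylation in human embryonic stem cells, read 28.2 and 13.9 in scurfy mock cells, against 163 and 169 in Treg (-2.32, SE 0.29, adjusted p = 0.021).

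Among signalling proteins, Ipcef1, a partner of cytohesin exchange factors, read 32.4 and 68.7 in scurfy mock cells, against 966 and 731 in Treg (-3.74). Igf2r, the mannose-6-phosphate receptor that carries lysosomal enzymes and clears IGF2, read 140 and 338 in scurfy mock cells, against 1454 and 1676 in Treg (-2.75, SE 0.42, adjusted p = 0.042). Its scurfy mock values were above the array median. Fgf13, an intracellular member of the FGF family, differed by -2.57 and Prickle1, a planar cell polarity protein, by -2.49.

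Enzymes and secreted proteins were also among the lower genes. Gad1, glutamate decarboxylase, which makes the transmitter GABA, read 0.193 and 4.26 in scurfy mock cells, against 146 and 323 in Treg (-3.69, SE 0.37, adjusted p = 0.0079). Ephx1, microsomal epoxide hydrolase, read 18.6 and 60.3 in scurfy mock cells, against 570 and 414 in Treg (-3.29). Msrb3, a methionine sulfoxide reductase, differed by -3.15, Ltf, the iron-binding lactotransferrin, by -2.94, and Adamts6, a secreted metalloproteinase, by -2.55. The chemokine gene Ccl20, whose product attracts cells with the receptor CCR6, read 0.763 and 4.18 in scurfy mock cells, against 51.1 and 52.7 in Treg (-1.88, SE 0.25, adjusted p = 0.021). The remaining called genes, named here after their values were seen, were Mgat5 (-2.02), a branching enzyme of N-glycans, Rasgef1b (-1.95), Tubb2a (-1.94), Sardh (-1.63) and the clone-named 1110032F04Rik (-3.06). In 10 of the 21 lower genes both scurfy mock arrays were not above their array median. Gad1, Ltf, Ccl20 and Sardh passed the filter on low values through the 2 Treg arrays alone, so for these 4 the filter itself set the direction.

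The 8 higher genes included a receptor and a secreted protease. Cxcr6, the receptor for the chemokine CXCL16 that marks effector and tissue-resident T cells, read 3433 and 1485 in scurfy mock cells, against 300 and 202 in Treg (3.12, SE 0.40, adjusted p = 0.021). Tconv mock read 31.4 and 36.5, so Treg lay between the scurfy mock and the Tconv mock arrays. Mmp10, the secreted matrix metalloproteinase stromelysin 2, read 163 and 277 in scurfy mock cells, against 0.950 and 1.41 in Treg (3.74, SE 0.49, adjusted p = 0.021). Gpm6b, a membrane glycoprotein related to the myelin proteolipid protein, read 2115 and 1502 in scurfy mock cells, against 377 and 430 in Treg (2.10, SE 0.29, adjusted p = 0.024). Gpm6b read 2055 and 1787 in Tconv mock, close to scurfy mock, and of the 5 groups only Treg was low.

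Gnai1, an inhibitory G protein alpha subunit, read 108 and 192 in scurfy mock cells, against 3.80 and 17.2 in Treg (2.65, SE 0.39). Pawr, the pro-apoptotic protein PAR-4, differed by 2.24, Sln, the calcium pump regulator sarcolipin, by 2.11, and Myo16, an unconventional myosin, by 1.63. The clone-named 1700061F12Rik, chosen after its values were seen, read 401 and 192 in scurfy mock cells, against 4.82 and 1.12 in Treg (3.97, adjusted p = 0.0055). In 6 of the 8 higher genes both Treg arrays were not above their array median, so for these the log2 scale understates any true ratio. Sln and Myo16 passed the filter through the 2 scurfy mock arrays alone, which set their direction likewise. Just beyond the threshold, each at an adjusted p of 0.055, were Ifitm2 (2.59), an interferon-induced membrane protein, Tox2 (2.35), a relative of Tox, and Ccr1 (2.14), a chemokine receptor.

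**Figure D2:**
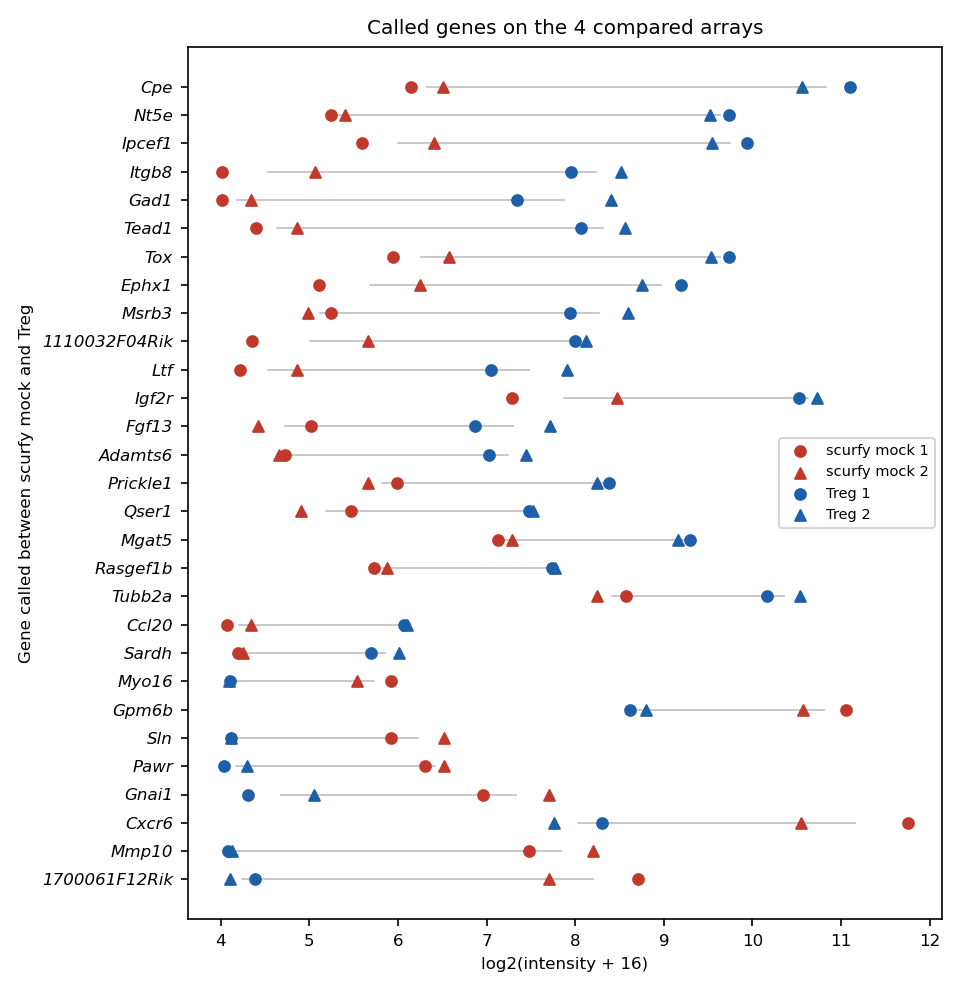
Intensities, as log2(intensity + 16), of the 29 called genes on the 4 compared arrays. Red symbols are scurfy mock and blue symbols Treg, with circles for array 1, triangles for array 2 and a grey line joining the group means. The 21 lower genes stand above the 8 higher ones, and the groups do not overlap for any of the 29.

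Several probe sets passed the filter for 17 of the 29 called genes, and in 16 of these all of them had the same direction. The exception was Nt5e. The call itself depended on the other 6 arrays: with the 4 compared arrays alone 0 genes were called by limma (668 at an unadjusted p under 0.05, lowest adjusted p 0.10). In that fit only their own spread was available, without the tighter Tconv pairs and with fewer arrays to estimate it. Leaving out scurfy mock array 1 gave 4 calls, of which 3 were among the 29, and leaving out scurfy mock array 2 gave 69, of which 20 were. Without Treg array 1 there were 8 calls, 5 of them among the 29, and without Treg array 2 there were 8, with 4 among the 29. Without either Tconv Foxp3 array there were 15, with 13 among the 29. Cpe, Nt5e and 1700061F12Rik were called in all 10 fits that left out an array. Fgf13, Sardh and Tubb2a were called in 0 of the 10, Igf2r and Myo16 in 1, and Gnai1, Prickle1 and Sln in 2. The sign of the difference did not turn for any of the 29 genes in any alternative run. Since the groups do not overlap for any of them, leaving out an array or changing the pseudocount could not have turned it.

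The differences of the arrays labelled Tconv Foxp3 minus Tconv mock come from none of the 4 arrays above. Their SE and adjusted p are from the same limma fit, whose spread includes those 4 arrays. The Foxp3 reading of Tconv Foxp3 (18.04 and 18.9, against 53.9 and 35.9 in Tconv mock) does not bear out the label. It comes from a single probe set, and whether the vector carries the part measured there is not known. The reading therefore does not count against the label either. Other genes of the fixed set of Treg and effector genes were mixed. As differences of Tconv Foxp3 minus Tconv mock they read 3.39 for Il2, -1.15 for Ctla4, -4.13 for Il10 and 1.59 for Ifng. Il4 read -1.47, Il5 -3.61, Il13 -3.58, Il7r -1.03 and Nrp1 0.97. None of these genes was called. They do not settle whether the label holds, which was not tested. In this comparison, 14 of the 21 lower genes had both Tconv Foxp3 arrays above both Tconv mock arrays, 1 had both below and 6 overlapped, while 47.5% of all genes tested lay above and 11.6% below. Of the 21, 3 were also called there, namely Ipcef1, Tox and Qser1, all higher in Tconv Foxp3. Over all 11326 genes 10 were called there, 6 of them higher. Each gene has the same SE in both comparisons, so a gene with a small SE is favoured in both and these calls are not independent. Ipcef1 read 799 and 1683 in Tconv Foxp3 and 43.7 and 25.7 in Tconv mock (4.56, SE 0.42, adjusted p = 0.010). Tox read 270 and 465 in Tconv Foxp3 and 41.2 and 45.0 in Tconv mock (2.65, SE 0.34, adjusted p = 0.033). Qser1 read 81.7 and 110 in Tconv Foxp3 and 5.56 and 5.88 in Tconv mock (2.35, SE 0.29, adjusted p = 0.033).

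Some lower genes, among them Igf2r and Tubb2a, were bright in both Tconv groups. Igf2r read 959 and 1204 in Tconv Foxp3 and 778 and 602 in Tconv mock. Tubb2a read 1215 and 913 in Tconv Foxp3 and 619 and 660 in Tconv mock. Cpe, Nt5e, Itgb8, Gad1 and Ltf were near background in both Tconv groups. Cpe read 5.54 and 1.96 in Tconv Foxp3 and 6.75 and 0.391 in Tconv mock (0.03, SE 0.31). Nt5e read 9.08 and 13.5 in Tconv Foxp3 and 3.92 and 3.77 in Tconv mock (0.45, SE 0.31), and Itgb8 differed by -0.14 (SE 0.45), Gad1 by -0.21 (SE 0.37) and Ltf by 0.06 (SE 0.34). Whether the effect in Tconv differs from the gap between scurfy mock and Treg was not tested. Of the 8 higher genes, 1 had Tconv Foxp3 above Tconv mock, 3 had it below and 4 overlapped, and 0 were called there.

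Scurfy Foxp3 arrays share their starting cells with scurfy mock, and each comparison of them shares arrays with the main one, so their values are only set beside it. Mean log2 level of B cell markers was 6.92 and 7.63 in scurfy Foxp3, against 4.53 and 6.20 in scurfy mock. Class II genes had 9.35 and 9.62, against 6.22 and 8.66, and NK cell markers 6.69 and 6.56, against 5.72 and 5.12. CD8 T cell markers were lower, at 5.24 and 4.99 against 5.92 and 5.92, as was the red blood cell marker. The part of these markers in the values below was not tested. Cpe read 178 and 139 in scurfy Foxp3, above scurfy mock and far below Treg. Nt5e read 62.0 and 124, Tox 149 and 191, and Itgb8 21.5 and 66.1, each above the scurfy mock arrays and below the Treg arrays. The differences of scurfy Foxp3 minus scurfy mock were 1.11 for Cpe, 1.38 for Nt5e, 1.27 for Tox and 1.26 for Itgb8, with adjusted p from 0.60 to 1.0. Tead1 read 12.9 and 1.91 and Ltf 2.61 and 1.35 in scurfy Foxp3, no higher than the brighter scurfy mock array. Cxcr6 read 2111 and 2247, Gpm6b 1529 and 1111 and Gnai1 167 and 168, all above the Treg arrays. Myo16 read 20.3 and 14.5 in scurfy Foxp3, above Treg and below scurfy mock, and Sln 13.3 and 0.955, below scurfy mock and overlapping Treg. Scurfy mock itself differed from Tconv mock by 2.06 in Cpe (SE 0.31, adjusted p = 0.030), by 1.02 in Nt5e (adjusted p = 0.23), by 0.37 in Tox (adjusted p = 0.65) and by 0.21 in Itgb8 (adjusted p = 0.86). Both scurfy mock arrays lay below both Tconv mock arrays for Ephx1, 1110032F04Rik, Tubb2a, Fgf13, Igf2r and Sardh, with no call. They lay above them for Cpe, Nt5e, Tox, Ltf, Qser1, Mgat5, Msrb3, Rasgef1b and Prickle1, and the remaining lower genes overlapped. Over all genes tested, 68.0% of the differences of scurfy mock minus Tconv mock were positive.

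**Figure D3:**
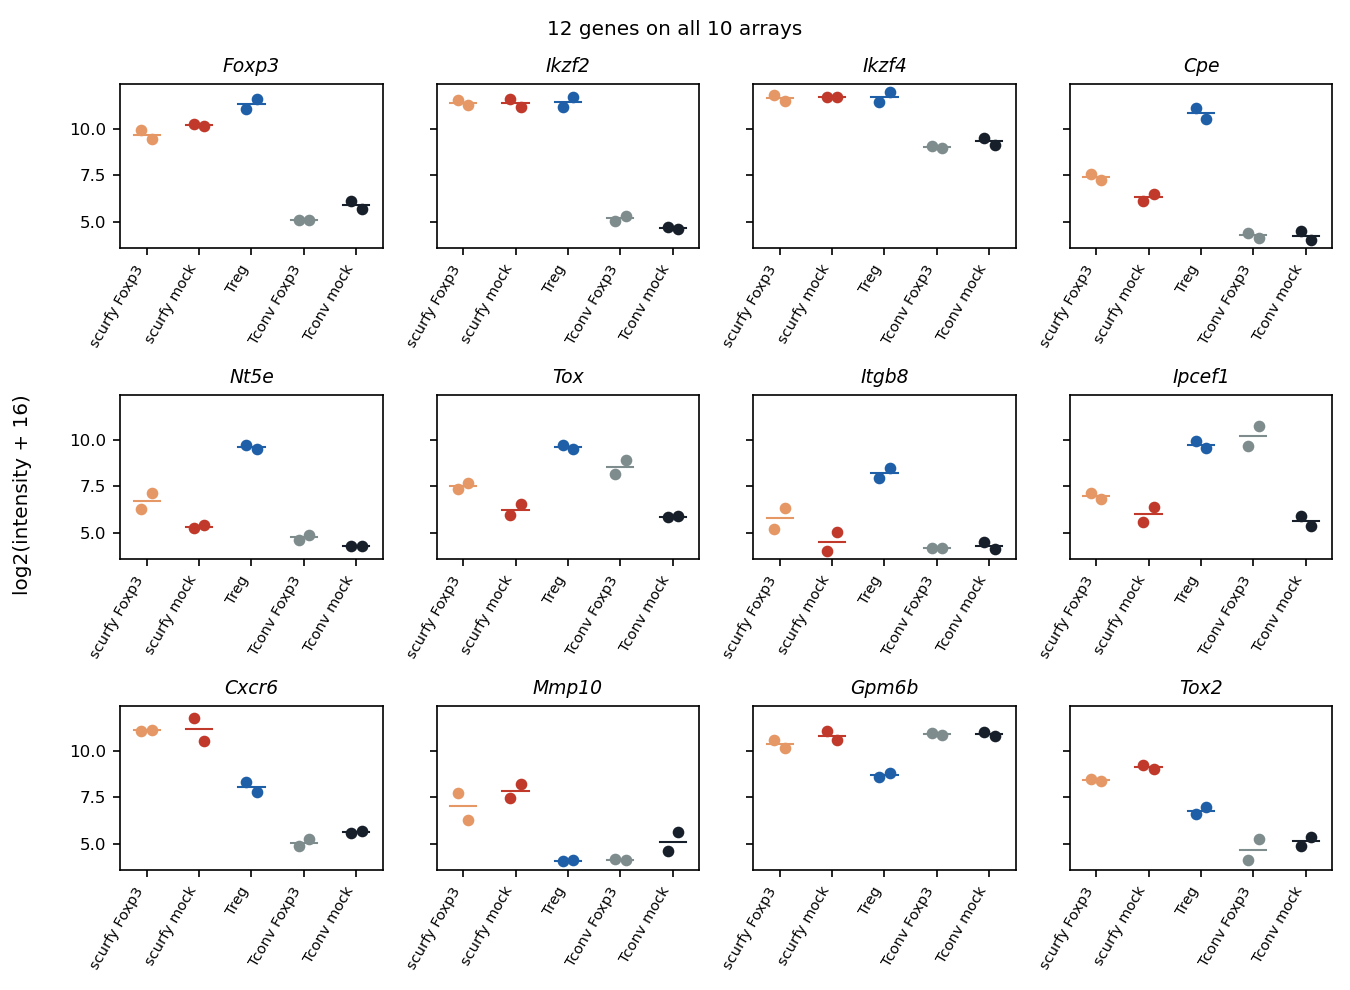
Intensities of 12 genes, as log2(intensity + 16), on all 10 arrays, with points for arrays and lines for group means. Foxp3, Ikzf2 and Ikzf4 are bright in scurfy Foxp3, scurfy mock and Treg. Cpe, Nt5e and Itgb8 are brightest in Treg, Tox and Ipcef1 are bright in Treg and Tconv Foxp3, and Gpm6b is lowest in Treg.

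Promoter sequence was looked at for the called genes, since forkhead factors bind motifs such as TGTTTAC and TTGTTTA. RefSeq promoters of build GRCm38.p6, from 250 bases before to 50 bases after the annotated start, were found for 16 of the 21 lower and 7 of the 8 higher genes. On either strand 1 or both of these overlapping motifs occurred in 0 of the 16 lower and in 1 of the 7 higher genes. This compares with 5.20% of the 9227 tested genes with a promoter and 7.30% of all 27025 genes with a promoter. The promoter of Nt5e is shown as that of the adenosine gene that was lower, with no motif. The promoter of Mmp10 is shown as the higher gene with a motif, and that of Foxp3 because the transgene that marked the cells is under Foxp3 control. Capitals mark the motif, which is read here on the other strand in both sequences. They are plus-strand windows at chr9:88327359-88327658, chr9:7502092-7502391 and chrX:7579426-7579725. RefSeq lists 2 starts of Foxp3, and the window of the other, chrX:7580233-7580532, holds neither motif.
Nt5e: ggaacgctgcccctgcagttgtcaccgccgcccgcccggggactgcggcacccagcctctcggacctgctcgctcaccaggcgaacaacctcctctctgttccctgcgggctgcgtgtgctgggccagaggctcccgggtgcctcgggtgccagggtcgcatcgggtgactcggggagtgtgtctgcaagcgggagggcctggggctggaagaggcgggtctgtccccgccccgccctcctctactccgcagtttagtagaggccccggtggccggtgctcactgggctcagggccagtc
Mmp10: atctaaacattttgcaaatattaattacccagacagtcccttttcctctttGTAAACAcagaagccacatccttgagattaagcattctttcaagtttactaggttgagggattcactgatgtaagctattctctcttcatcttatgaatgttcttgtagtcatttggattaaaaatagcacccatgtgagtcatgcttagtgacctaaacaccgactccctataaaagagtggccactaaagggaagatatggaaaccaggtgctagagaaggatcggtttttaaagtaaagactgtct
Foxp3: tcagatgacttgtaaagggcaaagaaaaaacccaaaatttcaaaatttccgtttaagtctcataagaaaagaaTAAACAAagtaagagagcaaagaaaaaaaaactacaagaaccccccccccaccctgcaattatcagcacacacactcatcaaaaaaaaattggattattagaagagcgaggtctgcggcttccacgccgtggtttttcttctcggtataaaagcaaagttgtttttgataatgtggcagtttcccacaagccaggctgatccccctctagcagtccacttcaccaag
The motif of Mmp10 begins 199 bases and that of Foxp3 177 bases before the start. These letters show nothing about binding in the cells measured.

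Lists of genes with shared function were described by counts and medians over members that passed the filter on low values, which favours genes bright in a single group. Of 31 Treg surface and effector molecules, 3 were called lower (Cpe, Nt5e and Itgb8) and 0 higher, against 0.185% and 0.0706% of all genes. The list median was -0.07, against 0.04 for all genes. Cpe, Nt5e, Tox and Itgb8 had been given as markers of this comparison, so these 3 calls are not a finding about the list. The same holds for Nt5e in the adenosine list and Itgb8 in the TGF-beta list below. In this list 13 genes had both scurfy mock arrays below both Treg arrays and 5 above, where 14.4% of all genes tested were below and 18% above. Klrg1, an inhibitory lectin receptor, read 204 and 130 in scurfy mock cells, against 514 and 563 in Treg (-1.63, adjusted p = 0.44), and Nrp1, neuropilin 1, a surface marker of thymus-derived Treg, 99.9 and 146 in scurfy mock cells, against 267 and 484 in Treg (-1.46, adjusted p = 0.28). Gzmb, granzyme B, differed by -0.41, and Il10 by 0.84 (SE 0.64, adjusted p = 0.89).

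Adenosine is made from extracellular ATP in steps by CD39, encoded by Entpd1, and CD73. Of 11 genes of this pathway on the array 7 passed the filter and 1 was called, Nt5e. Entpd1 ran the other way, with 2542 and 1078 in scurfy mock cells, against 451 and 518 in Treg (1.74, SE 0.58, adjusted p = 0.40), and it was not called. Adk, adenosine kinase, differed by 0.85 and Slc29a1, a nucleoside transporter, by -0.49, neither of them called. The list median was 0.27, and -0.24 without scurfy mock array 1.

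The TGF-beta list split likewise. Of 18 genes 1 was called, Itgb8, and the median was -0.10. Ltbp1, which binds latent TGF-beta to the matrix, read 9.77 and 0.522 in scurfy mock cells, against 42.4 and 85.1 in Treg (-1.90, adjusted p = 0.11). Tgfb2, a TGF-beta ligand, read 73.9 and 153 in scurfy mock cells and lay below the array median on both Treg arrays (2.06, adjusted p = 0.063), and Tgfbr3, the coreceptor betaglycan, 873 and 924 in scurfy mock cells, against 54.1 and 101 in Treg (3.34, adjusted p = 0.18). Their groups did not overlap, but none of these 3 was called. The pair of TOX family genes also had opposite signs: Tox2 read 588 and 508 in scurfy mock cells, against 80.9 and 111 in Treg, the reverse order of Tox.

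Several cytokine genes had large differences but also a wide spread between replicates. Il13, with the largest positive difference of all genes tested, read 1423 and 5227 in scurfy mock cells, against 10.4 and 98.8 in Treg (5.64, SE 1.30, adjusted p = 0.16). Il4 read 308 and 4093 in scurfy mock cells, against 21.5 and 101 in Treg (4.12, SE 1.64, adjusted p = 0.55), and Il5 read 53.0 and 1351 in scurfy mock cells, against 2.97 and 5.41 in Treg (3.93, SE 1.55, adjusted p = 0.55). These are the classic Th2 cytokines, encoded together on chromosome 11. The groups did not overlap for any of the 3, yet array 2 of scurfy mock was several times brighter than array 1 and none was called. Il24 differed by 4.67 (adjusted p = 0.12) and Gata3, the Th2 master transcription factor, by 1.69 (adjusted p = 0.28).

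Of 12 Th2 genes 0 were called, 8 had an unadjusted p under 0.05, 11 were positive, and 9 had both scurfy mock arrays above both Treg arrays. Over all genes tested, 899 of 11326 had such a p, 6114 were positive and 18% lay above. Their median was 1.69, against 1.78 with scurfy mock array 1 left out and 1.61 with array 2 left out. The same cytokines varied between the Tconv mock arrays, where Il13 read 230 and 5773. Other effector cytokines included Ifng, which encodes interferon gamma, at 355 and 1861 in scurfy mock cells, against 60.4 and 62.5 in Treg (3.43, SE 0.85, adjusted p = 0.21), and the cytokine Lif at 939 and 821 in scurfy mock cells, against 60.7 and 139 in Treg (3.04, adjusted p = 0.067). Csf1, the macrophage growth factor M-CSF, read 2038 and 1361 in scurfy mock cells, against 208 and 475 in Treg (2.34, adjusted p = 0.063). Of 22 effector cytokine genes 0 were called, with a median of 0.89, and of 1.87 with scurfy mock array 1 left out and 0.14 with array 2 left out.

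Il2, the T cell growth factor that Treg do not make, was low in both groups, at 6.96 and 14.8 in scurfy mock cells, against 18.4 and 77.9 in Treg (-1.10, SE 0.86, adjusted p = 0.89). Il17a differed by -0.95 (adjusted p = 0.89) and Il21 by 1.58 (adjusted p = 0.93), and the groups overlapped for both. Among 22 genes known to be repressed by Foxp3, 18 were positive and 0 were called, with a median of 0.58. Pde3b, the phosphodiesterase that Foxp3 is known to silence, read 2510 and 444 in scurfy mock cells, against 136 and 439 in Treg (2.03, SE 0.89, adjusted p = 0.62). Array 2 of scurfy mock was thus level with array 2 of Treg. Id2, an inhibitor of E proteins, read 3008 and 2510 in scurfy mock cells, against 779 and 1035 in Treg (1.60, adjusted p = 0.11), and Satb1, a chromatin organiser that Foxp3 is known to repress, 4894 and 4379 in scurfy mock cells, against 1098 and 2537 in Treg (1.46, adjusted p = 0.24). Il7r, the IL-7 receptor, differed by 0.27.

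Of 20 Th1 and cytotoxic genes 0 were called, with a median of 0.45. Gzma, granzyme A, read 8751 and 2732 in scurfy mock cells, against 25.7 and 771 in Treg (4.76, adjusted p = 0.35), and Il12rb2, a chain of the IL-12 receptor, 626 and 799 in scurfy mock cells, against 60.7 and 270 in Treg (2.29, adjusted p = 0.17). Il18r1 had the opposite sign, with 136 and 52.9 in scurfy mock cells, against 284 and 574 in Treg (-2.04, adjusted p = 0.21). In the Th17 list 1 of 9 genes was called, Ccl20. Il1r2, the decoy receptor for IL-1, read 2697 and 3197 in scurfy mock cells, against 489 and 593 in Treg (2.41, adjusted p = 0.10).

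Among 20 chemokine receptor and homing genes Cxcr6 alone was called, 14 were negative, and the median was -0.38. Cxcr4 read 4236 and 4451 in scurfy mock cells, against 1676 and 3260 in Treg (0.89, adjusted p = 0.56), and Ccr3 7.10 and 9.13 in scurfy mock cells, against 30.5 and 40.8 in Treg (-1.09, adjusted p = 0.21). Naive and memory T cell genes had 12 of 15 negative members, 0 called and a median of -1.001. Bach2, a repressor that maintains the resting state and Treg, read 49.1 and 212 in scurfy mock cells, against 1018 and 674 in Treg (-2.79, adjusted p = 0.13). Lef1, a transcription factor of naive T cells, differed by -0.81. The median of this list was -0.39 without Treg array 2. Co-inhibitory receptors had 9 of 12 negative and 0 called, where 5212 of all 11326 genes tested were negative. Their mean log2 level was 7.67 on scurfy mock array 1 and 8.78 on array 2, against 8.75 and 8.57 on the Treg arrays. Havcr2, which encodes TIM-3, had 157 and 490 in scurfy mock cells, against 61.3 and 39.2 in Treg (2.18, adjusted p = 0.21), and Pdcd1, which encodes PD-1, differed by -1.02.

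**Figure D4:**
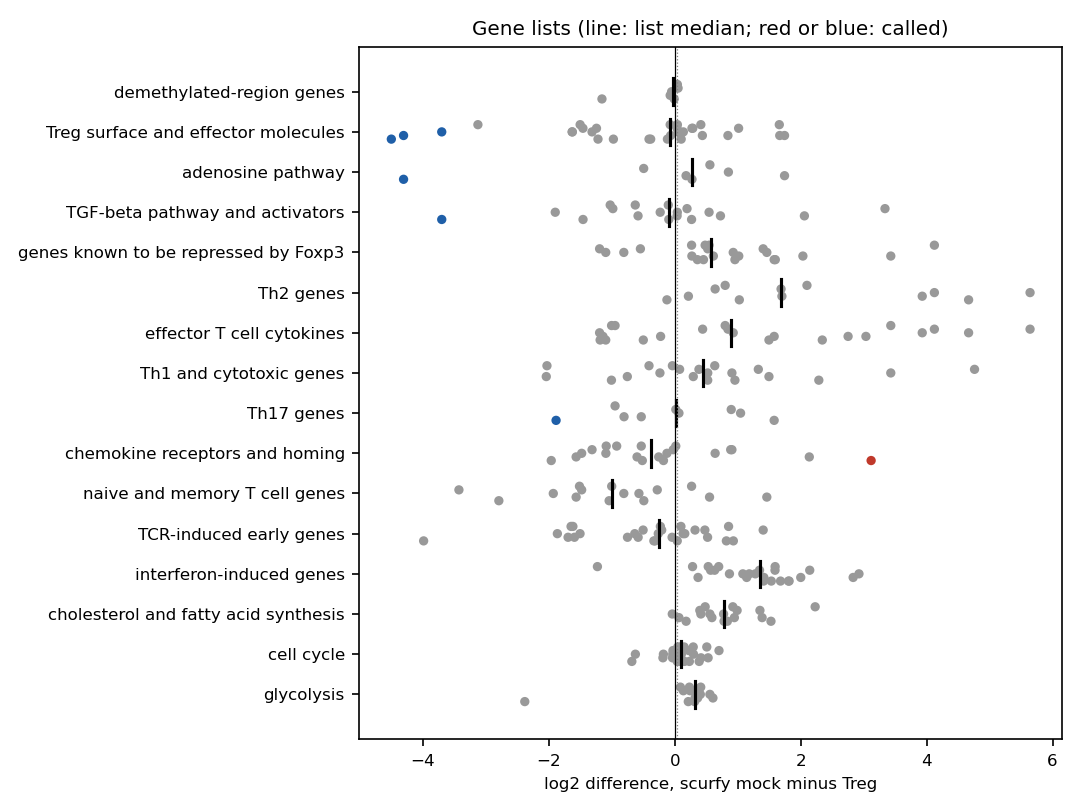
Log2 differences, scurfy mock minus Treg, of the measured members of 16 gene lists, with each point a gene, a black line at each list's median and a dotted line at the median of all genes, 0.04. Blue and red points are genes called lower and higher. The demethylated-region genes other than Foxp3 lie near 0, Th2 genes reach 5.64, and interferon-induced genes have 24 of 25 positive members without a call.

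Some lists differed as much between the scurfy mock arrays as between the groups. Interferon-induced genes had 24 of 25 positive and a median of 1.35, but 0 were called. Their mean log2 level was 10.09 on scurfy mock array 1 and 7.46 on array 2, against 6.95 and 8.09 on the Treg arrays, and the list's median was 0.08 without scurfy mock array 1 and 2.52 without scurfy mock array 2. The part of that array in the other results was tested only by leaving it out. Oas3, an antiviral enzyme, read 2593 and 180 in scurfy mock cells, against 41.4 and 139 in Treg (2.92, adjusted p = 0.57). Cholesterol and fatty acid synthesis genes had 17 of 18 positive and a median of 0.78, with 0 called. Lss, lanosterol synthase, read 2943 and 1190 in scurfy mock cells, against 480 and 849 in Treg (1.53, adjusted p = 0.34), and the list's median was 0.18 without scurfy mock array 1 and 1.44 without array 2.

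Early genes induced by the T cell receptor had a mean level of 8.06 on scurfy mock array 1 and 9.42 on array 2, against 9.22 and 9.11 on the Treg arrays. Nr4a3, an orphan nuclear receptor of this list, read 2.61 and 181 in scurfy mock cells, against 1173 and 756 in Treg (-3.99, adjusted p = 0.15), and Myc 191 and 393 in scurfy mock cells, against 1070 and 692 in Treg (-1.59, adjusted p = 0.16). Of 28 such genes 0 were called, and the median of -0.24 was 0.40 without scurfy mock array 1. Cell cycle genes had a median of 0.09 over 29 genes, with 0 called. Glycolysis genes were positive in 14 of 15 with small differences (median 0.32, 0 called). Amino acid and ATF4 stress genes had a median of 0.31 over 18 genes, with 0 called.

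Markers of other cell types were compared in the same way. B cell markers passed the filter for 8 of 11 genes on the array, and their summed intensity was 81.4 and 795 in scurfy mock cells, against 94.96 and 1412 in Treg. Class II genes passed for 9 of 10, with sums of 1373 and 4406 in scurfy mock cells, against 795 and 6513 in Treg. Both lists were brighter on array 2 of each group, and the groups overlapped in both sums. Their part in the results above was not tested. Within the B cell list 3 of 8 genes were positive and 5 negative. Cd79b, the highest (0.62), read 53.9 and 111 in scurfy mock cells, against 1.57 and 197 in Treg. Ebf1, the lowest (-1.72), read 0.507 and 20.8 in scurfy mock cells, against 38.5 and 104.9 in Treg. NK cell markers passed for 4 of 9 genes (sums of 360 and 85.0 in scurfy mock cells, against 74.8 and 86.7 in Treg), and 3 of the 4 were negative. The only positive gene was Klrk1, also found on activated T cells, which read 323 and 11.0 in scurfy mock cells, against 1.41 and 5.57 in Treg. Tyrobp and Fcer1g, adaptor genes that NK cells share with myeloid cells, lay between 10.7 and 50.9 on all 4 arrays. Myeloid markers passed for 5 of 15 genes, with sums of 4539 and 1857 in scurfy mock cells, against 2516 and 3946 in Treg. Most of each sum was Ctss, which read 4392 and 1743 in scurfy mock cells, against 2375 and 3708 in Treg. Ctss also read 1732 and 992 in Tconv mock, so the sums do not measure myeloid cells. Of the 5, 3 were positive and 2 negative. The lowest, Cd68, a lysosomal protein of macrophages, read 69.9 and 54.35 in scurfy mock cells, against 101 and 159.5 in Treg (-0.88, adjusted p = 0.78). The part of NK and myeloid markers in the results was not tested either. CD8 T cell markers summed to 140 and 143 in scurfy mock cells, against 122 and 122 in Treg.

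**Figure D5:**
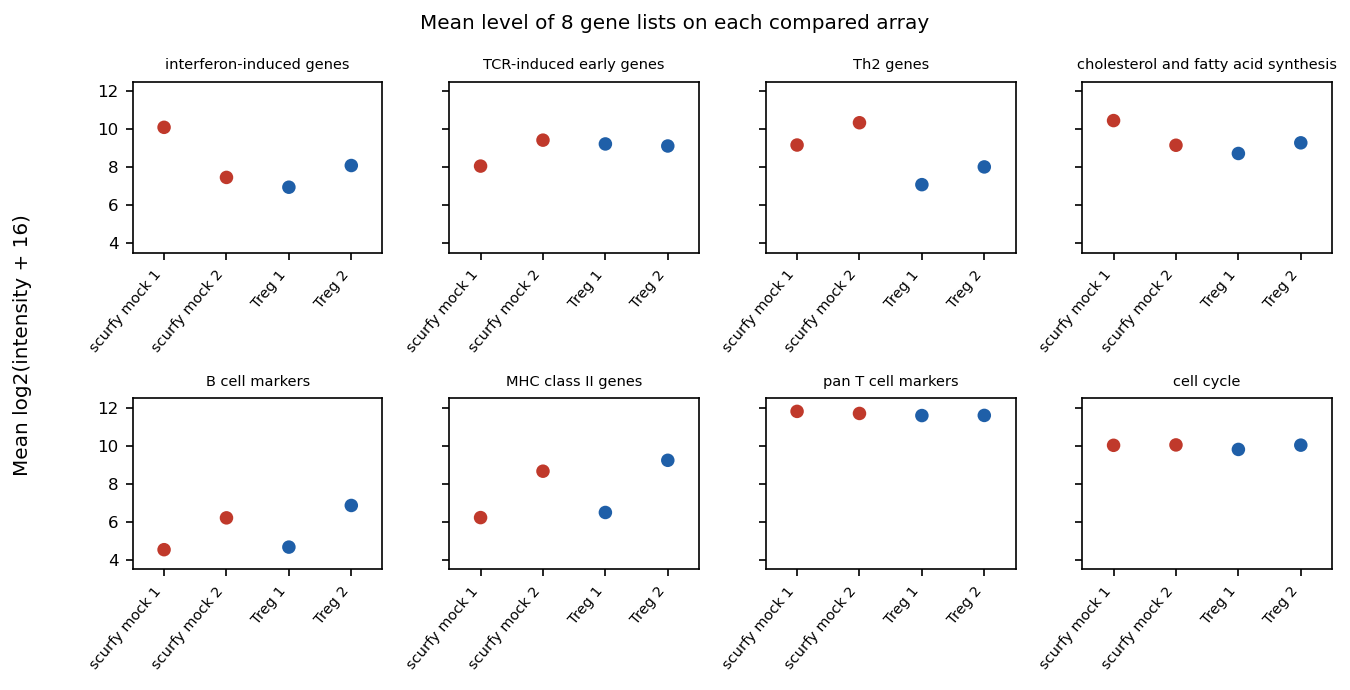
Mean log2(intensity + 16) over the members of 8 gene lists on each of the 4 compared arrays, scurfy mock in red and Treg in blue. Interferon-induced genes reach 10.09 on scurfy mock array 1 against 7.46 on array 2, B cell and class II genes are brighter on array 2 of both groups, and T cell markers and cell cycle genes are level. For Th2 genes both scurfy mock arrays lie above both Treg arrays.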

How the data were processed

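Expression of CD4+ T cells was measured on 10 Affymetrix Mouse Genome 430 2.0 arrays in 5 groups of 2, taken from the sample titles. The authors deposited an intensity per probe set on a linear scale, made with Affymetrix Expression Console per the submitters' processing notes. The method that summarised probe sets, its version and whether arrays were scaled were not stated in those notes or labels.

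Of 45101 probe sets, 64 were controls, 34945 had a single gene symbol in the platform annotation, 932 several and 9224 none. For 18193 genes the brightest probe set, by its average across all arrays, stood for the gene, and values were taken as log2(intensity + 16) without further normalization. Genes that exceeded the median of an array in 2 or more of the 10 arrays were tested, 11326 in all. Differences understate the change of dim genes on this scale. The fit used lmFit and eBayes of limma 3.58.1 (R 4.3.3) over all 10 arrays, with 5 residual degrees of freedom and a prior of 4.07, two-sided and adjusted by Benjamini-Hochberg. The pipeline was tested on simulated data. The number of arrays limits precision, and the labels do not say whether replicates were separate mice or cultures. The p-values therefore reflect the spread among arrays only, which may be technical.

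Lists were described by counts and medians, with no set test. The members and lists were chosen with earlier results of these data known. Named genes were the 15 largest called differences in each direction without clone names, the 10 smallest p in a direction with under 10 calls, a fixed set of Treg and effector genes, and up to 4 members of each list. Alternatives were quantile normalization, a common 75th percentile, pseudocounts of 1 and 64, other filters and probe set rules, trend and robust options, array weights, a replicate block, the 4 compared arrays alone, and each array left out in turn. Replicate numbers were not used as pairs: deviations of same-numbered scurfy mock and Treg arrays correlated at -0.17.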

Additional observations from a re-analysis of the deposited data

How the results depend on the processing

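Calls between scurfy mock and Treg depended on the processing. The sign of the difference of the 29 called genes did not turn in any alternative run. Their groups do not overlap, which fixed this in advance for runs that left out an array or changed the pseudocount. Against 29 calls (8 higher, 21 lower), quantile normalization gave 59 (28 higher, 31 lower) and a common 75th percentile 59 (26 higher, 33 lower), and both kept all 29. A pseudocount of 1 gave 7 (4 higher, 3 lower), no filter 16 (4 higher, 12 lower), each probe set with the same filter 52 (13 higher, 39 lower), trend and robust options 47 (20 higher) and array weights 15 (5 higher, 10 lower). Higher calls numbered 5 with a filter at the 75th percentile, 14 with the mean of probe sets and 5 with each probe set and no filter. The 4 compared arrays alone gave 0 in either direction, with 668 genes at an unadjusted p under 0.05. Leaving out an array gave from 4 to 69 calls, from 1 to 28 higher and from 2 to 41 lower, the lowest total without scurfy mock array 1 and the highest without scurfy mock array 2. A fit with the replicate block gave 9 calls (1 higher, 8 lower), in a design where the numbers are not shown to pair the arrays. Added after seeing the data, the 3 mock-labelled groups alone gave 2 calls (0 higher, 2 lower), and crossed replicate numbers as a block on the 4 arrays gave 0 in either direction by limma, with 939 at an unadjusted p under 0.05. With fewer arrays less spread could be estimated, and the cause of the other shifts was not tested. Where an arm kept 1 array, that array was taken to vary like the other groups. Genes near the array background, such as Itgb8, Gad1 and Sardh in scurfy mock or Mmp10 and Sln in Treg, have differences that move with the pseudocount.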
